A study of Mus musculus with 12 samples.

Results

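The insulin-like growth factor (IGF) genes described here were chosen by symbol: the ligands Igf1 and Igf2, the receptors Igf1r and Igf2r, and the binding proteins Igfbp3, Igfbp4, Igfbp5, Igfbp6 and Igfbp7. Of these 9 symbols, 8 had a row among the 14957 genes of the count tables, and Igf2 was not analysed here. Ventricular RNA came from 12 wild-type C57Bl/6J mice, 4 in each of 3 groups, in a study of BacNav, a prokaryotic sodium channel given as gene therapy during pressure overload. TAC-BacNav mice underwent transverse aortic constriction, a narrowing that raises the load on the ventricle, together with an AAV9 vector carrying BacNav joined to the fluorescent protein mScarlet under MHCK7, a promoter active in heart and skeletal muscle. TAC-mScarlet mice had the constriction and an AAV9 vector with mScarlet alone under the same promoter. In the Sham-NT group the operation was a sham and the injection phosphate-buffered saline without vector, so constriction and vector changed together wherever Sham-NT was the comparator and cannot be told apart. The labels give no age, sex or time after surgery.

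IGF1 and IGF2 are secreted hormones that promote growth and survival of cells. They signal through the receptor tyrosine kinase encoded by Igf1r, whereas the receptor encoded by Igf2r takes up IGF2 for breakdown and also carries lysosomal enzymes. Most IGF outside cells is held by binding proteins, which lengthen its life, limit its access to the receptor and release it when proteases cut them. In the heart, fibroblasts and macrophages are known sources of IGF1, cardiomyocytes respond to it, and IGFBP7 binds IGF only weakly and is secreted by vessel and stromal cells.

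Each library held between 5.36 and 11.5 M counts (mega-counts). All Sham-NT libraries, at 5.36 to 7.84 M, were smaller than every TAC-mScarlet library, at 8.28 to 9.81 M. Depth and group thus cannot be told apart between these groups. The 8 genes had between 117 and 4664 counts in a library. Ventricular cardiomyocyte markers summed to between 51298 and 89822 CPM (counts scaled to the size of the library), against 2.00 to 8.15 CPM for the atrial markers Myl7 and Myl4. Levels are given as CPM after TMM scaling, and, where genes are compared with each other, as CPM per kilobase of exon (RPKM). The immediate early gene Fos split the libraries across groups. Fos was at or above 20 CPM in TAC-BacNav 1 and 2, TAC-mScarlet 1, 2 and 3, and Sham-NT 1 and 2, and below it in the other 5 libraries. Mesothelial markers summed to between 53.3 and 120.1 CPM on the Fos-high side and between 14.0 and 25.0 CPM on the Fos-low side. The part of this split in the results was not tested beyond fits within each side and a fit with the side as a term. TAC-mScarlet 3 also stood apart, with activated fibroblast markers at 3620 CPM against at most 1490 CPM in any other library. The main log2 fold changes that rest on it are given with and without it.

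Igfbp5 and Igfbp7 were the members with the largest differences between constricted and sham hearts, and the 250 bases before their RefSeq start sites are shown for these 2 genes. Both were read from RefSeq on GRCm38.p6, minus strand, and are written 5′ to 3′. Capitals mark a TATA-like box (TATTTAA, chosen after the sequence was read) in Igfbp5 and GC boxes (GGGCGG) in Igfbp7, searched on both strands.
Igfbp5, chr1:72874866-72875115: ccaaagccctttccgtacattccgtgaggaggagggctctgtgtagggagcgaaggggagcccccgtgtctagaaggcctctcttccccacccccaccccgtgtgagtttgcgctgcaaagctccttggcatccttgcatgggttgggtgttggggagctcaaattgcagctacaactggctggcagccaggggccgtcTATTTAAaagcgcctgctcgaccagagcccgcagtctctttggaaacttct
Igfbp7, chr5:77408046-77408295: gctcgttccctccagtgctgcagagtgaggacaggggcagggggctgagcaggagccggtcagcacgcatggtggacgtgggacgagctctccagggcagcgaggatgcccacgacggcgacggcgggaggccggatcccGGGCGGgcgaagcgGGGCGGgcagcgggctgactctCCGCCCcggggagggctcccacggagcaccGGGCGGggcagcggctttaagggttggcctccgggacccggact
The Igfbp5 stretch held 1 TATA-like box, whose first base lay 51 bases before the RefSeq start, and no GC box. In GENCODE the Igfbp5 gene reaches to 72874884, inside this stretch, so its GENCODE start lies nearer to the box. The Igfbp7 stretch held 4 GC boxes, the farthest 110 and the nearest 44 bases before the start, and no TATA-like box. Among 32841 RefSeq mouse promoters of the same length, 4.18% held TATTTAA and 32.8% held GGGCGG. The GC content was 58.8% in the Igfbp5 stretch and 74.0% in the Igfbp7 stretch, against a median of 52.4% over all promoters. These matches describe the letters only.

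Per kilobase, Igfbp7 was the most abundant of the 8 transcripts in each group and Igf1r the least. Igfbp7 averaged 144 ± 56.4 RPKM in TAC-BacNav, 220.2 ± 119 RPKM in TAC-mScarlet and 96.4 ± 10.5 RPKM in Sham-NT hearts (SD, n = 4 each). The lowest Igfbp7 library stood above the highest library of the next gene in every group. Igfbp6, Igfbp4 and Igfbp5 followed, at group means between 17.8 and 48.4 RPKM, and neighbours among these 3 overlapped in their libraries in each group. Igf2r (13.0 to 14.9 RPKM) and Igfbp3 (9.20 to 14.3 RPKM) came next. They overlapped in both constricted groups but not in Sham-NT, where Igfbp5 and Igf2r overlapped instead. The ligand Igf1 averaged 3.90 ± 0.302 RPKM in TAC-BacNav, 5.40 ± 2.93 RPKM in TAC-mScarlet and 3.12 ± 0.710 RPKM in Sham-NT, and Igf1r lay below it without overlap at 1.62 to 2.04 RPKM. Binding protein transcripts thus outnumbered Igf1 transcripts per kilobase in every library, by between 47.7 and 85.6 times when the 5 were summed. Igfbp7, whose protein binds IGF only weakly, made up between 41.9 and 69.4% of that sum in each library. These values depend on the exonic lengths used, 9904 bases for Igf1, 1209 for Igfbp7 and 1112 for Igfbp6, each a union over all annotated exons. In CPM, without length, Igfbp7 was not the highest in Sham-NT, at a mean of 117 against 146 for Igfbp4 and 121 for Igf2r.

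**Figure D1:**
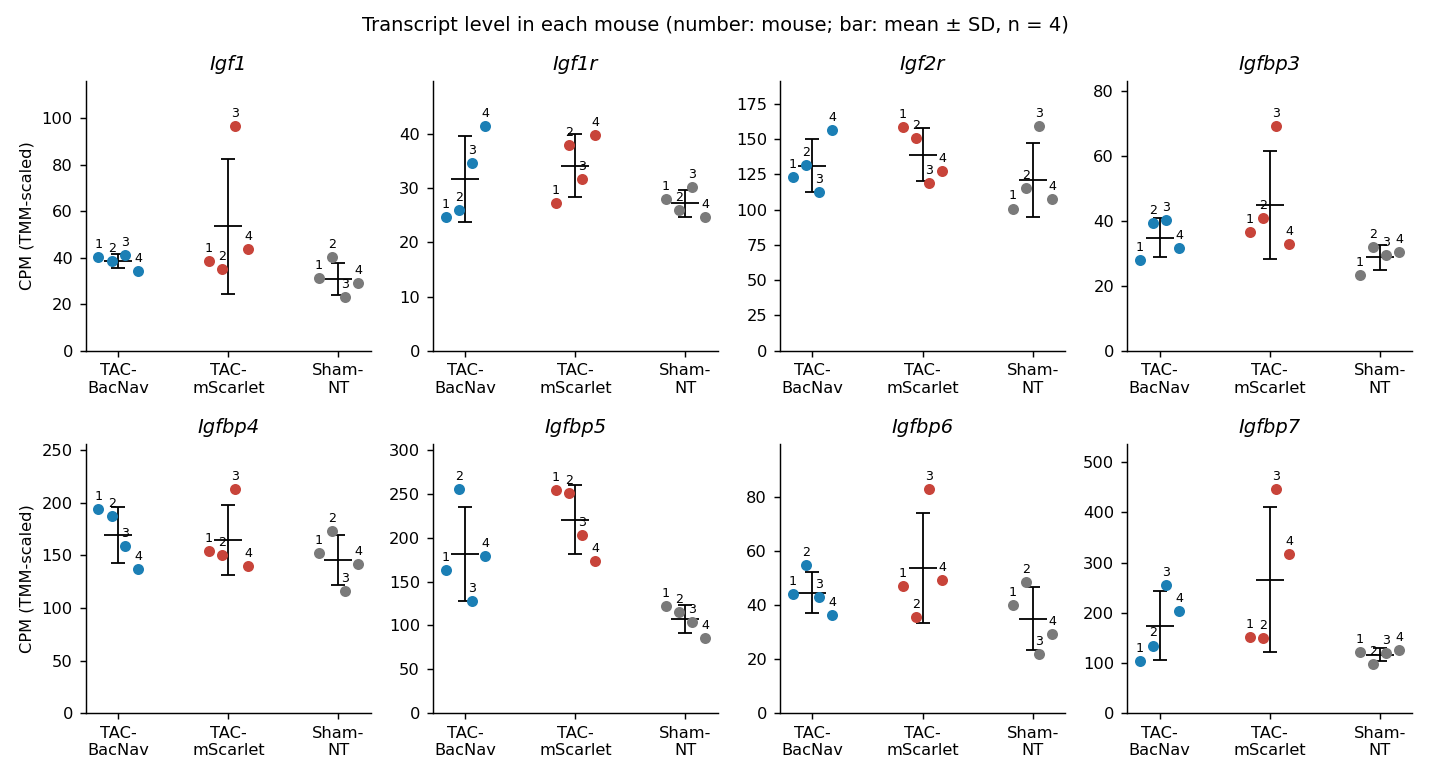
Level of each of the 8 genes in CPM (vertical axis, from 0) for every mouse, by group. Points are mice with their number, horizontal bars the group mean and error bars the SD (n = 4). Igfbp5 in all 4 TAC-mScarlet mice lies above every Sham-NT mouse, and TAC-mScarlet 3 is the highest mouse for Igf1, Igfbp3, Igfbp4, Igfbp6 and Igfbp7.

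TAC-mScarlet against Sham-NT asks what constriction with a control vector changed. Igfbp5, a binding protein of the extracellular matrix, rose, and it was the only one of the 8 genes to pass. In TAC-mScarlet mice 1 to 4 it stood at 254, 251, 203 and 173 CPM, against 123, 116, 104 and 86.2 CPM in Sham-NT mice 1 to 4. The groups did not overlap, and all 4 TAC-mScarlet mice were higher. The group means were 220.2 ± 39.1 and 107 ± 15.9 CPM, and the log2 fold change was 1.04 ± 0.19 (SE), with a 95% interval from 0.63 to 1.45 and an adjusted p of 0.0174 (edgeR quasi-likelihood F test, Benjamini-Hochberg over 13910 genes). In bulk tissue, a different number of cells of a type and a different amount of RNA per cell cannot be told apart. Among all genes tested 5.17% were called in this comparison, 2.65% as higher and 2.52% as lower, and 1 called gene of 8 is not read as a result about the family. At an unadjusted p below 0.05, 5 of the 8 passed by edgeR, against 22.2% of all genes. Scaling by library size gave 698 higher and 205 lower calls in place of 369 and 350, and the median over all genes was 0.13 in place of 0.0044. The call was lost without Sham-NT 2 (log2 fold change 1.08, adjusted p = 0.0603 by edgeR) and without Sham-NT 4 (0.95, adjusted p = 0.0704 by edgeR). On the Fos-high side, with 3 TAC-mScarlet and 2 Sham-NT mice, the log2 fold change of Igfbp5 was 0.99 (adjusted p = 0.0188 by edgeR), and on the Fos-low side, with 1 and 2 mice, it was 0.84 (adjusted p = 0.281 by edgeR, the lone mouse assumed to vary like the others). Within groups, Igfbp5 ranged from 164 to 256 CPM on the Fos-high and from 128 to 179 CPM on the Fos-low side of TAC-BacNav, and from 116 to 123 CPM and from 86.2 to 104 CPM on these sides of Sham-NT. On GRCm38 the gene (ENSMUSG00000026185.8) lies on chromosome 1, 72857932 to 72874884, minus strand, and no other annotated gene overlaps it.

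Igfbp7 had the largest fitted difference but did not pass. Its level in TAC-mScarlet mice 1 to 4 was 152, 149, 447 and 317 CPM, against 122, 98.0, 120 and 126 CPM in Sham-NT mice 1 to 4. The groups did not overlap, yet the TAC-mScarlet mice formed a lower and a higher pair. On the log2 scale the difference was 1.19 ± 0.37 (SE, adjusted p = 0.0815 by edgeR), and 0.82 without TAC-mScarlet 3 (adjusted p = 0.218 by edgeR). It passed with DESeq2 (adjusted p = 0.00662) and with the side of the Fos split as a term (1.31, adjusted p = 0.0393 by edgeR). Within the sides it was 1.18 (adjusted p = 0.323 by edgeR) on the Fos-high side, and 1.35 on the Fos-low side, where TAC-mScarlet is 1 mouse and no pass is read. Igfbp7 (ENSMUSG00000036256.13; chromosome 5, 77349240 to 77408041, minus strand) shares 85 exonic bases, 7.03% of its exonic length, with Polr2b on the opposite strand. No source used here gives the strand setting of the counting, so reads there cannot be assigned with certainty. Polr2b, a subunit of RNA polymerase II, averaged 49.6 ± 3.76 CPM in TAC-mScarlet and 42.4 ± 8.58 CPM in Sham-NT.

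Igfbp3, which forms the main circulating IGF complexes in blood, did not overlap between the groups either. It stood at 36.6, 40.9, 69.3 and 32.8 CPM in TAC-mScarlet mice 1 to 4, against 23.2, 32.01, 29.6 and 30.3 CPM in Sham-NT mice 1 to 4. The gap between the nearest mice was small, and the difference of 0.64 ± 0.21 on the log2 scale (SE, adjusted p = 0.0855 by edgeR) was 0.35 without TAC-mScarlet 3. With library size scaling in place of TMM, under the shift of all genes given above, it passed (0.78, adjusted p = 0.0481 by edgeR). On the Fos-high side Igfbp3 gave 0.83 (adjusted p = 0.158 by edgeR). On the Fos-low side, where TAC-mScarlet 4 alone faced Sham-NT 3 and 4, Igfbp3 gave 0.12. Libraries of the 2 groups did not overlap for 3 of the 8 members, all 3 higher in TAC-mScarlet, against 6.33% of all genes higher, 6.78% lower and 13.1% in either direction.

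The ligand Igf1 did not pass and rested on 1 mouse. It was at 38.6, 35.00, 96.7 and 43.6 CPM in TAC-mScarlet mice 1 to 4, against 31.1, 40.2, 23.3 and 29.0 CPM in Sham-NT mice 1 to 4. TAC-mScarlet 3 stood far above the other 7 mice, and the other 3 TAC-mScarlet mice lay within or just above the Sham-NT range. Igf1 differed by 0.80 ± 0.28 on the log2 scale (SE, adjusted p = 0.110 by edgeR), and by 0.34 without TAC-mScarlet 3 (adjusted p = 0.299 by edgeR). DESeq2 called it with all mice (adjusted p = 0.0478).

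The remaining members overlapped between TAC-mScarlet and Sham-NT. Igfbp6, which prefers IGF2, averaged 53.9 ± 20.4 CPM in TAC-mScarlet and 35.1 ± 11.7 CPM in Sham-NT (log2 fold change 0.63 ± 0.26, adjusted p = 0.178 by edgeR), and the value was 0.34 without TAC-mScarlet 3. Igfbp4, a carrier that the protease PAPPA cuts, averaged 164 ± 33.1 and 146 ± 23.7 CPM, with a 95% interval of the log2 fold change from -0.17 to 0.51. For the receptors, Igf1r averaged 34.2 ± 5.80 CPM in TAC-mScarlet and 27.2 ± 2.45 CPM in Sham-NT (0.33 ± 0.17, adjusted p = 0.284 by edgeR). Igf2r averaged 138.8 ± 18.7 CPM in TAC-mScarlet and 120.7 ± 26.3 CPM in Sham-NT, with an interval from -0.13 to 0.53. Sham-NT 3 had the highest Igf2r level of the 12 libraries, at 159 CPM against 101, 116 and 108 CPM in Sham-NT 1, 2 and 4. The log2 fold change of 0.20 was 0.36 without Sham-NT 3 (adjusted p = 0.109 by edgeR) and 0.12 without Sham-NT 1. The noncoding gene Airn lies across Igf2r on the other strand but shares no annotated exonic base with it. All 8 fitted values were above 0, with a median of 0.64 against 0.0044 over all genes tested. Without TAC-mScarlet 3 all 8 were again above 0, with a median of 0.35. Of all genes 50.5% were above 0, and the 8 members share the same mice.

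**Figure D2:**
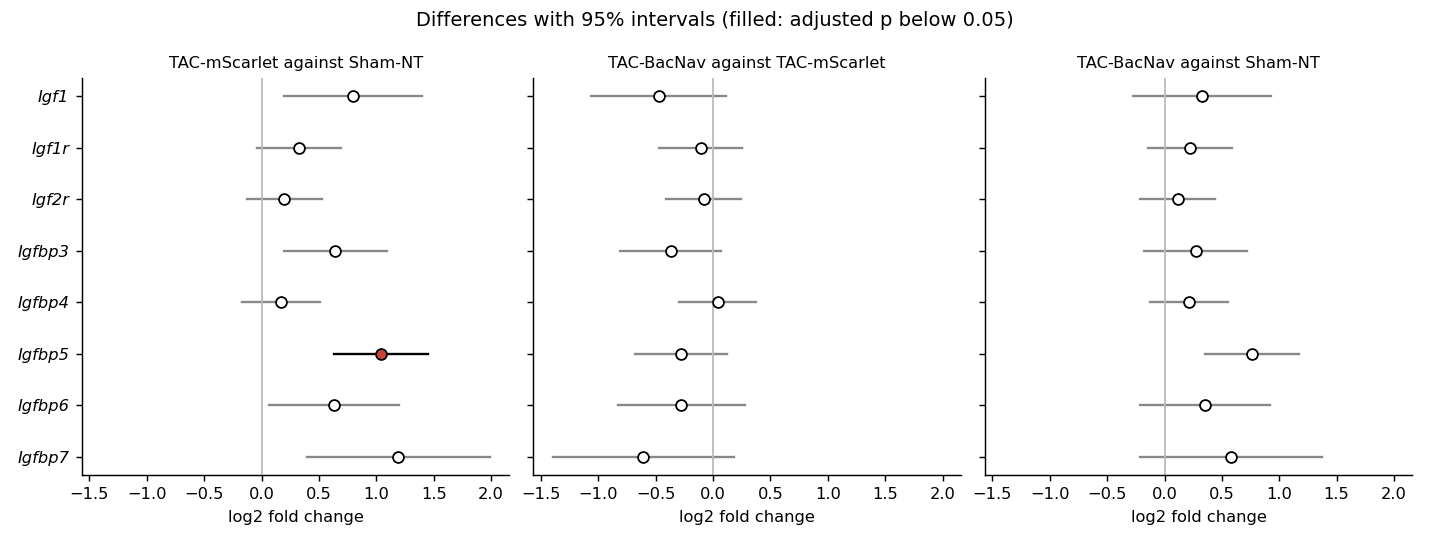
Log2 fold change (horizontal axis) of the 8 genes in each of the 3 comparisons, with lines for the 95% interval from edgeR. A filled point passed an adjusted p of 0.05, and the 1 filled point is Igfbp5 in TAC-mScarlet against Sham-NT, at 1.04.

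Igfbp7 and Igfbp5 are set here beside markers of activated fibroblasts, mouse by mouse. The 8 activated fibroblast markers measured (Postn, Cilp, Thbs4, Meox1, Comp, Fap, Ltbp2 and Col8a1) summed to 156, 316, 688 and 658 CPM in TAC-BacNav mice 1 to 4, to 509, 559, 3620 and 1490 CPM in TAC-mScarlet mice 1 to 4, and to between 114 and 138 CPM in Sham-NT. In both constricted groups mice 3 and 4 had the higher sums. Igfbp7 had the same order of pairs, with 256 and 203 CPM in TAC-BacNav 3 and 4 against 105 and 135 CPM in TAC-BacNav 1 and 2. In TAC-BacNav these pairs are also the Fos-low (3 and 4) and Fos-high (1 and 2) libraries, so marker level and Fos side cannot be told apart there. Igfbp5 did not: it was at 203 and 173 CPM in TAC-mScarlet 3 and 4, below the 254 and 251 CPM of TAC-mScarlet 1 and 2. Of these 8 markers, 6 rose in TAC-mScarlet against Sham-NT, among them Postn, a matrix protein of activated fibroblasts (log2 fold change 4.12 ± 0.83, adjusted p = 0.0295 by edgeR), and Comp and Fap did not pass. General fibroblast markers (10 genes) summed to between 2866 and 3464 CPM in TAC-BacNav, 3143 and 5030 CPM in TAC-mScarlet and 2334 and 3104 CPM in Sham-NT. The 10 macrophage markers summed to between 772 and 916 CPM in TAC-BacNav, 789 and 1311 CPM in TAC-mScarlet and 528 and 711 CPM in Sham-NT, so that both constricted groups lay above Sham-NT without overlap. Of these 10, Adgre1, Fcgr1, Lyz2, Mrc1 and Csf1r rose in TAC-mScarlet against Sham-NT and 5 did not pass by edgeR, with a median log2 fold change of 0.58. TAC-mScarlet 3 had the highest sum of all 3 of these lists. The 9 endothelial markers summed to 1163 to 1357 CPM in TAC-mScarlet and 1071 to 1199 CPM in Sham-NT. Ventricular cardiomyocyte markers summed to 51298 to 67846 CPM in TAC-mScarlet and 80804 to 89822 CPM in Sham-NT, and 3 of 8 (Tnni3, Tnnt2 and Myh6, of the contractile apparatus) fell. Among all genes tested 5.17% were called in TAC-mScarlet against Sham-NT. The marker lists were chosen with earlier results of these data known, so the counts that passed are not read as a result. The part of these cell types in the IGF results was not tested.

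**Figure D3:**
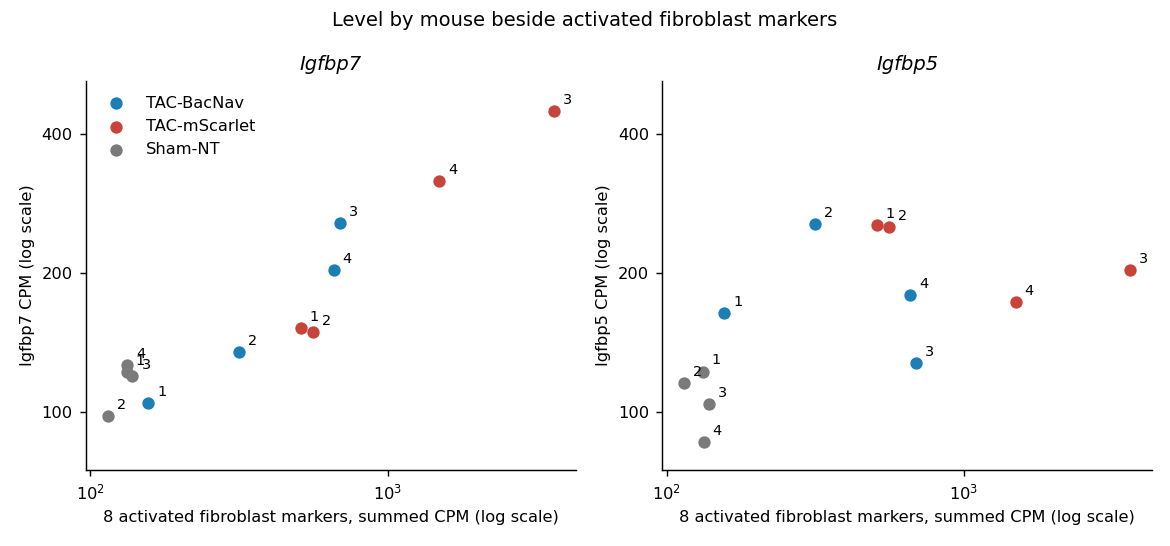
Level of Igfbp7 (left) and Igfbp5 (right) in CPM against the summed CPM of 8 activated fibroblast markers, both on log scales, with 1 point per mouse and its number. Igfbp7 is highest in TAC-mScarlet 3, which has the highest marker sum (3620 CPM), whereas Igfbp5 is at 203 CPM there and at 254 CPM in TAC-mScarlet 1, whose marker sum is 509 CPM.

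TAC-BacNav against TAC-mScarlet asks what BacNav changed under the same constriction. No member passed: 0 of 8 were below an adjusted p of 0.05, and 0 of 8 below an unadjusted p of 0.05, by edgeR, and DESeq2 and limma-voom also called 0 of the 8. Of all genes tested, 0.0% were called by edgeR, 467 (3.36%) were below an unadjusted p of 0.05, DESeq2 called 5 and limma-voom 0. All 8 genes overlapped between the groups, whereas 1.7% of all genes did not. For 7 of the 8 the fitted value was below 0, the exception being Igfbp4 at 0.04, and the median was -0.28, against 0.0036 over all genes. Without TAC-mScarlet 3, 6 of the 8 were below 0 and the median was -0.11.

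For Igfbp5, TAC-BacNav mice 1 to 4 stood at 164, 256, 128 and 179 CPM, against the 254, 251, 203 and 173 CPM of TAC-mScarlet mice 1 to 4 given above. TAC-BacNav 2 was as high as the highest TAC-mScarlet mice, and TAC-BacNav 3 was near the Sham-NT range. The log2 fold change was -0.28 ± 0.19 (SE), with a 95% interval from -0.68 to 0.12, and it was -0.49 without TAC-BacNav 2 and -0.13 without TAC-BacNav 3. Igfbp7 gave -0.61 ± 0.36 with an interval from -1.40 to 0.18, at 175 ± 68.2 CPM in TAC-BacNav and 266 ± 144 CPM in TAC-mScarlet, and it gave -0.24 without TAC-mScarlet 3. Within the Fos-high side, which holds TAC-mScarlet 3, Igfbp7 gave -1.06. Within the Fos-low side, where TAC-mScarlet is 1 mouse, it gave -0.47. Igf1 was at 40.5, 38.6, 41.1 and 34.4 CPM in TAC-BacNav mice 1 to 4. The SD was 7.75% of the mean there, against 54.3% in TAC-mScarlet and 22.7% in Sham-NT. The TAC-mScarlet spread rests on TAC-mScarlet 3, at 96.7 CPM against 35.00 to 43.6 CPM in the other mice of that group. The log2 fold change of Igf1 was -0.47 ± 0.27, and -0.015 without TAC-mScarlet 3. Igfbp3 gave -0.37 ± 0.21, and -0.078 without TAC-mScarlet 3. The intervals of Igf1r (-0.47 to 0.26), Igf2r (-0.41 to 0.24), Igfbp4 (-0.30 to 0.38) and Igfbp6 (-0.83 to 0.28) also contained 0, so differences within these bounds could not be told from 0 with 4 mice a group.

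TAC-BacNav against Sham-NT shares its mice with both comparisons above. Again 0 of 8 members passed by edgeR, DESeq2 or limma-voom, 1 of 8 was below an unadjusted p of 0.05 by edgeR (11.1% of all genes), and 0.0144% of all genes were called by edgeR. The exception was Igfbp5, whose lowest TAC-BacNav mouse, at 128 CPM, was just above the highest Sham-NT mouse, at 123 CPM. Without overlap, 3.08% of all genes were higher, 2.37% lower and 5.45% either. The group means of Igfbp5 were 181 ± 53.8 CPM in TAC-BacNav and 107 ± 15.9 CPM in Sham-NT, the log2 fold change 0.76 ± 0.19 (SE), the 95% interval 0.36 to 1.17 and the adjusted p 0.345 by edgeR. Igfbp7 gave 0.58 ± 0.36 (adjusted p = 0.567 by edgeR) and Igf1 0.33 ± 0.28 (adjusted p = 0.678 by edgeR). Igfbp7 gave 0.35 without TAC-BacNav 3, and 0.12 within the Fos-high against 0.88 within the Fos-low side. Igf1 gave 0.21 without Sham-NT 3, and 0.15 and 0.51 within these sides. The other 5 ranged from 0.12 for Igf2r to 0.35 for Igfbp6, which was 0.18 without Sham-NT 3 and 0.55 without Sham-NT 2. Igf2r gave 0.28 without Sham-NT 3 and 0.017 without TAC-BacNav 4.

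Seen as a set, the 5 binding protein transcripts summed to 206, 259, 321 and 271 RPKM in TAC-BacNav mice 1 to 4, to 257, 244, 549 and 377 RPKM in TAC-mScarlet mice 1 to 4, and to 199, 194, 172 and 187 RPKM in Sham-NT mice 1 to 4. Each constricted mouse of either group was above every Sham-NT mouse. Igfbp7 made up 53.2 ± 12.5% of the sum in TAC-BacNav, 59.1 ± 10.9% in TAC-mScarlet and 51.5 ± 7.04% in Sham-NT, and its range overlapped between groups. The Igfbp4 share was 15.1 ± 4.79%, 11.2 ± 3.00% and 17.5 ± 2.05% in the same order of groups, and its range in TAC-mScarlet (8.37 to 13.9%) lay below that in Sham-NT (15.3 to 20.3%). The mean level of Igfbp4 itself was not lower, at 164 ± 33.1 CPM in TAC-mScarlet and 146 ± 23.7 CPM in Sham-NT. The lower share thus goes with the higher sum. The summed binding protein level over Igf1 was 68.03 ± 12.9 in TAC-BacNav, 69.3 ± 12.2 in TAC-mScarlet and 62.1 ± 10.5 in Sham-NT, with overlapping ranges. These sums carry no test.

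**Figure D4:**
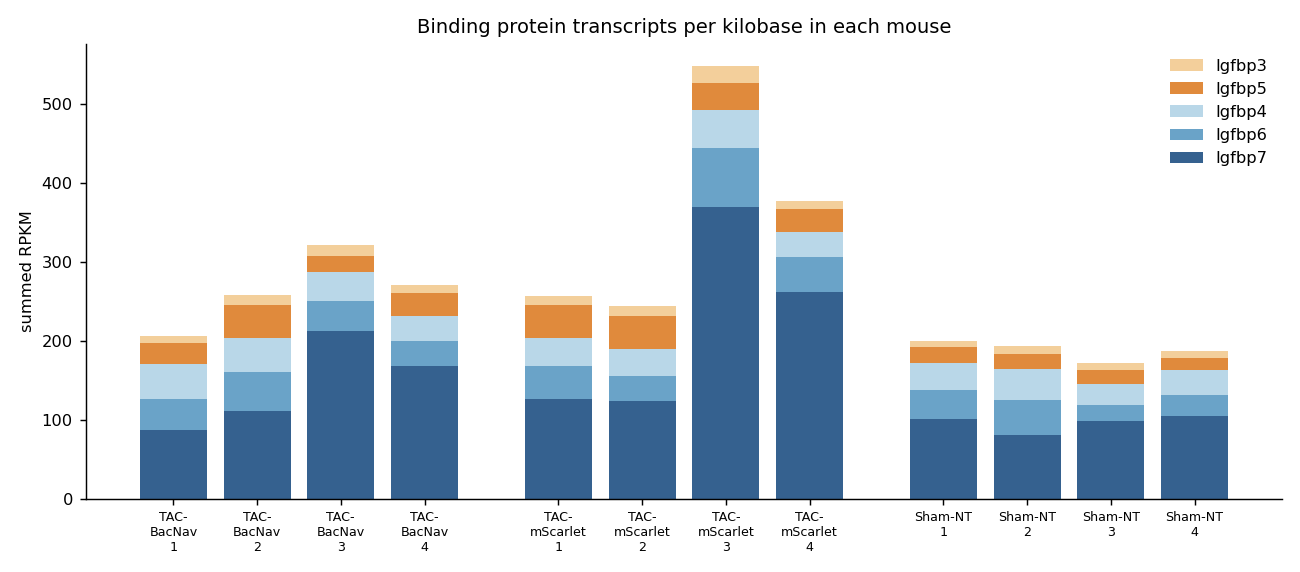
Summed RPKM of the 5 binding protein transcripts (vertical axis, from 0) in each mouse, stacked by gene. Igfbp7, the lowest layer, is the largest in every mouse, and the total is highest in TAC-mScarlet 3 at 549 RPKM.

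Around the members, Stc1 and Lrp1 were the other genes of the axis called between TAC-mScarlet and Sham-NT. Of a list of 24 further genes that carry IGF, cut or trap its binding proteins or set its production, 15 were tested, 2 rose and 13 did not pass, beside 5.17% of all genes called, with a median log2 fold change of 0.0060. Stc1, a stanniocalcin that inhibits PAPPA proteases, was at 9.80, 7.14, 9.01 and 8.35 CPM in TAC-mScarlet mice 1 to 4, against 5.55, 1.37, 4.92 and 3.69 CPM in Sham-NT mice 1 to 4 (log2 fold change 1.13 ± 0.29, adjusted p = 0.0375 by edgeR). All 4 TAC-BacNav mice, at 10.5, 7.48, 9.74 and 10.9 CPM, were also above every Sham-NT mouse, but Stc1 did not pass in TAC-BacNav against Sham-NT (adjusted p = 0.319 by edgeR). Lrp1, an endocytic receptor that binds IGFBP3 and IGFBP5, was at 115, 139, 196 and 179 CPM in TAC-mScarlet mice 1 to 4, against 89.0, 93.9, 103 and 107 CPM in Sham-NT mice 1 to 4 (0.68 ± 0.17, adjusted p = 0.0365 by edgeR). The groups did not overlap for either gene. The Stc1 call was lost without Sham-NT 2 (0.86) or 4 (1.10), or TAC-mScarlet 1 (1.06), 3 (1.10) or 4 (1.14), and the Lrp1 call without Sham-NT 1 (0.63), 2 (0.65) or 4 (0.72), or TAC-mScarlet 3 (0.55) or 4 (0.61), with adjusted p between 0.0690 and 0.117 by edgeR. Neither passed within the Fos-high side (1.33 for Stc1 and 0.72 for Lrp1) or the Fos-low side (0.93 and 0.75). The insulin receptor gene Insr averaged 193 ± 32.1 CPM in TAC-mScarlet and 188 ± 34.6 CPM in Sham-NT. The growth hormone receptor gene Ghr (-0.31 ± 0.12, adjusted p = 0.144 by edgeR), the protease genes Htra1 (-0.51 ± 0.15, adjusted p = 0.0578 by edgeR) and Htra3 (-0.22 ± 0.14), and H19, the imprinted noncoding neighbour of Igf2 (-0.94 ± 0.49), did not pass, nor did Stc2 (0.04 ± 0.18). Pappa had 90 counts over the 12 libraries and was not tested, and Igfbp1, Igfbp2 and Pappa2 were not analysed here.

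**Figure D5:**
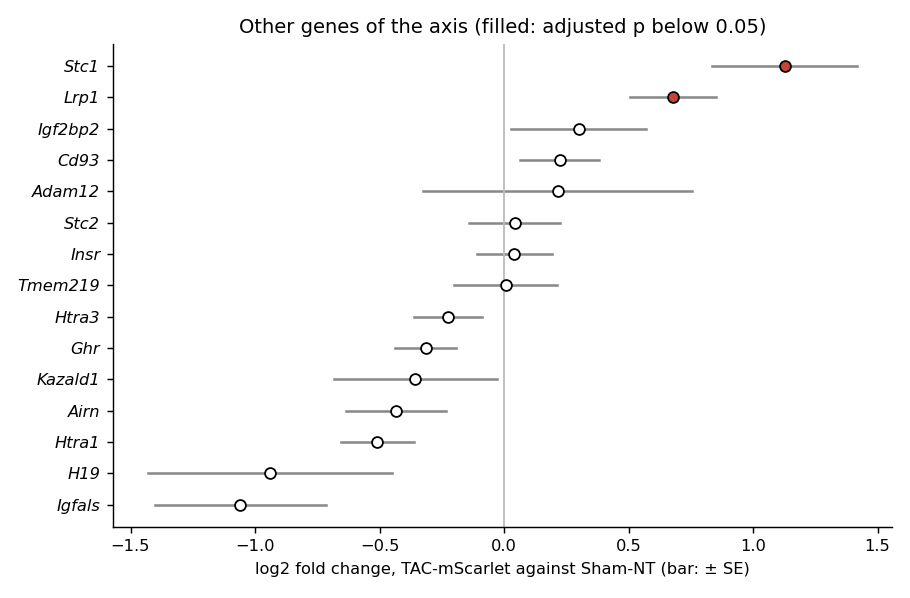
Log2 fold change in TAC-mScarlet against Sham-NT (horizontal axis) of the 15 tested further genes of the axis, with bars for ± SE. Filled points, Stc1 at 1.13 and Lrp1 at 0.68, passed an adjusted p of 0.05.

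Downstream of the receptors, 1 of 35 tested signalling genes passed in TAC-mScarlet against Sham-NT, beside 5.17% of all genes, and the median was 0.034. Socs3, an inhibitor of cytokine and insulin signalling, was at 8.12, 5.10, 16.6 and 10.6 CPM in TAC-mScarlet mice 1 to 4, against 4.56, 4.88, 4.92 and 4.65 CPM in Sham-NT mice 1 to 4 (log2 fold change 1.09 ± 0.30, adjusted p = 0.0498 by edgeR). TAC-mScarlet 2 barely exceeded the Sham-NT mice, and the call was lost without any of the 4 Sham-NT mice (log2 fold change 1.07 to 1.11) and without TAC-mScarlet 1 (1.18), 3 (0.73) or 4 (1.06). With all mice, the Socs3 call was also lost with limma-voom (adjusted p = 0.132), and by edgeR with RLE scaling (0.0502), the mouse number as a block (0.0629) or the 2 groups alone (0.0685). It was kept with DESeq2, library size scaling, the other filters and the Fos side as a term. The adaptor genes Irs1 (-0.36 ± 0.46) and Irs2 (0.18 ± 0.72) did not pass, and Irs2 varied widely, at 34.6 ± 19.6 CPM in TAC-mScarlet and 30.9 ± 25.8 CPM in Sham-NT. Of 15 targets of FoxO factors, which insulin and IGF signalling hold in check, Klf15, a repressor of hypertrophic growth, fell and 14 did not pass (median 0.013), beside the same 5.17% of all genes. Klf15 was at 34.4, 25.5, 15.0 and 28.5 CPM in TAC-mScarlet mice 1 to 4, against 48.0, 39.2, 59.8 and 50.6 CPM in Sham-NT mice 1 to 4 (-0.94 ± 0.21, adjusted p = 0.0251 by edgeR), and the call was lost without Sham-NT 2 (-1.04), Sham-NT 4 (-0.93) or TAC-mScarlet 3 (-0.75). Socs3 and Klf15 did not pass within either Fos side. Over the 3 lists together (65 genes tested), edgeR called 4, DESeq2 7 and limma-voom 2 in TAC-mScarlet against Sham-NT, and 15 were below an unadjusted p of 0.05 by edgeR, beside 22.2% of all genes. Of the same 65, edgeR called 0 in TAC-BacNav against TAC-mScarlet, with 3 below an unadjusted p of 0.05 beside 3.36% of all genes, and DESeq2 and limma-voom also called 0. The 3 were Socs3, at 6.16, 7.48, 5.60 and 4.36 CPM in TAC-BacNav mice 1 to 4 (log2 fold change -0.79 ± 0.29), Klf15, at 39.1, 29.9, 42.8 and 36.7 CPM (0.53 ± 0.21), and Stc2 (-0.42 ± 0.18), named after their values were seen. TAC-mScarlet 3 was the highest mouse for Socs3 (16.6 CPM) and the lowest for Klf15 (15.0 CPM). Fits of this comparison without TAC-mScarlet 3 are not given here for these genes. With Sham-NT as the comparator of TAC-BacNav, edgeR and limma-voom called 0 of the 65 and DESeq2 1, and 11 were below an unadjusted p of 0.05 by edgeR, beside 11.1% of all genes.

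The members also differed in which genes resembled them over the 12 libraries, by Pearson's r of log2 CPM among 12493 genes. The likeness is a description, since the libraries share groups and TAC-mScarlet 3 stands apart. Igfbp7 was most like Mfap5, a microfibril protein (r of 0.99, and 0.98 over the 11 libraries without TAC-mScarlet 3), Sparc, a collagen-binding matrix protein (0.98 and 0.97), and Pcolce, an enhancer of procollagen processing (0.98 and 0.97). Igfbp6 was most like Dab2, Mmp23 and Cd63 (each 0.94, and 0.90 without TAC-mScarlet 3). Among the genes most like Igf1 were Rnase4 (0.95, and 0.80 without that library) and Npc2, a lysosomal cholesterol carrier (0.94 and 0.85). Igfbp5 was most like Arhgap30 (0.94), Kctd12b (0.93) and Uba6 (0.92), each also at 0.92 to 0.94 without TAC-mScarlet 3. With the mean of each group taken out, r was 0.78 for Arhgap30, 0.89 for Kctd12b and 0.78 for Uba6. The same measure was 0.97 to 0.98 for Mfap5, Sparc and Pcolce with Igfbp7. Igfbp3 was nearest to Shisa4 (0.97), Cttn (0.95) and Leprot (0.93, and 0.78 without that library), and Igfbp4 to Hnrnpa0 (0.91), Apoe (0.90) and Ccl3 (0.90). Ccl3 was near the floor, at means of 1.19 CPM in TAC-BacNav, 1.57 CPM in TAC-mScarlet and 0.51 CPM in Sham-NT. Igf1r was nearest to the integrin gene Itga1 (0.93), Eif3a (0.92) and Zfc3h1 (0.91), and Igf2r to Mtm1 (0.95), Usp15 (0.95) and Ncoa4 (0.94).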

How the data were processed

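The authors deposited 1 table of raw gene counts per mouse, from HISAT2 and featureCounts per the submitters' processing notes. Versions, strand setting and the handling of multiply mapped reads are not stated in any source used here. Those notes name GRCh38, whereas the tables carry mouse Ensembl identifiers, of which 14946 of 14957 matched GENCODE vM21 (GRCm38) without version. The smallest total of a gene was 30 counts over the 12 libraries. RNA was isolated from snap-frozen ventricles and sequenced as read pairs, per the labels' protocols.

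Differences were fitted in R 4.3.3 with edgeR 4.0.16: filterByExpr by group (13910 genes kept, among them all 8 members with a row), TMM scaling, and 1 quasi-likelihood model of the 12 libraries, two-sided, at a threshold of 0.05 after Benjamini-Hochberg adjustment over the tested genes. The script was tested on simulated data. The SE is the absolute log2 fold change over the square root of F, and intervals are 95%. Exonic lengths are unions of GENCODE exons. Libraries of the same group always differed by more than counting noise (chi-square over its degrees of freedom at least 5.35), and mice are separate animals per the labels. Named genes are the 9 members, called or direct-acting genes of the pathway lists, and the 3 genes most like each member by Pearson's r with a mean of at least 1 CPM, of which 1 gene is not reported here. Members and lists were chosen with earlier results of these data known. Alternatives were limma-voom (limma 3.58.1), DESeq2 1.42.0, other scalings and filters, the mouse number as a block, the Fos split, and leaving out each library.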

Additional observations from a re-analysis of the deposited data

Results flagged for a closer look

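Igf1 in TAC-mScarlet 3 stood at 96.7 CPM, and its gap to the nearest of the other 3 TAC-mScarlet mice was 0.860 of the range of the group, above Dixon's 95% critical value for 4 samples. It was the only outlying value among the 24 sets of 4 mice examined (8 genes in 3 groups), and chance flags about 1 in 20 sets.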

How the results depend on the processing

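In TAC-mScarlet against Sham-NT, 719 genes and 1 member were called. DESeq2 called 1371 genes and 3 members (Igfbp5, Igfbp7 and Igf1), limma-voom 467 genes, the fit with the Fos side as a term 1459 genes and 2 members, library size scaling 903 genes and 2 members, and the fit within the Fos-low side, with 1 TAC-mScarlet mouse, 96 genes and 1 member. Leaving out each library gave 14 to 1055 genes and 0 to 2 members. The count was 256, 14 and 20 without Sham-NT 1, 2 and 4, and 97 and 228 without TAC-mScarlet 3 and 4. For TAC-BacNav set against TAC-mScarlet, DESeq2 called 5 genes, the fit of the 2 groups alone 1 and the fit within the Fos-high side 2, against 0. In TAC-BacNav against Sham-NT, 2 genes were called. The count was 38 with DESeq2, 1 with the 2 groups alone, 8 with the Fos side as a term, 4 and 34 within the Fos-high and Fos-low sides, and 0 to 15 with each library left out (15 without TAC-BacNav 1, 1 without Sham-NT 2 or TAC-BacNav 4, and 0 without any of the other 5). The causes were not tested.

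Among members that did not pass, signs turned within the Fos-low side for Igf2r (-0.085 for TAC-mScarlet over Sham-NT, 0.076 for TAC-BacNav over TAC-mScarlet and -0.0088 for TAC-BacNav over Sham-NT) and Igfbp3 (0.13 for TAC-BacNav over TAC-mScarlet), within the Fos-high side for Igf1r (-0.090 for TAC-BacNav over Sham-NT), and, for TAC-BacNav over TAC-mScarlet, for Igfbp6 without TAC-mScarlet 3 (0.018) and for Igfbp4 without TAC-mScarlet 4 (-0.027), TAC-BacNav 1 (-0.032) or TAC-BacNav 2 (-0.015), with ranges over each library left out of -0.42 to 0.018 for Igfbp6 and -0.032 to 0.19 for Igfbp4. Igfbp7 in TAC-mScarlet against Sham-NT also passed without TAC-mScarlet 1 (1.38, adjusted p = 0.0452 by edgeR) and without TAC-mScarlet 2 (1.38, adjusted p = 0.0391 by edgeR).

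Same-numbered mice did not deviate together throughout (correlations -0.29 to 0.38, with 8 of 12 pairs over 0.1 and 6 of 12 libraries nearest to their own number). These values do not settle whether the number marks a pairing, and the main fit takes none. The Fos side partly followed the number. Mice 1 and 2 were Fos-high and mouse 4 was Fos-low in every group, and mouse 3 was Fos-low except in TAC-mScarlet. With the mouse number as a replicate block, 889 genes and 3 members (Igfbp5, Igfbp7 at 1.02 and Igfbp3 at 0.602) were called for TAC-mScarlet over Sham-NT, and for TAC-BacNav 6 genes over TAC-mScarlet and 12 over Sham-NT.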
